A study of Mus musculus with 16 samples.

Results

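The genes described here are 10 genes that mark oligodendrocyte precursors, cells on the way to becoming oligodendrocytes and newly formed oligodendrocytes, read in whole-brain RNA of male wild-type and Slc5a8-deficient mice. They were chosen by name (Gpr17, Neu4, Enpp6, Pdgfra, Cspg4, Sox10, Olig1, Olig2, Bmp4 and Bcas1), and every non-control probe carrying one of these names was taken, which gave 12 of the array's 55681 probes and 10 of its 34821 gene names. Of these probes, 11 passed the filter on dim probes, at least 1 for each of the 10 genes, and all 11 were well above background on every one of the 16 arrays. Slc5a8 is a transporter that takes lactate, pyruvate, ketone bodies and related acids into cells together with sodium. Both genotypes, given as C57BL/6J, were taken at 4 months (young) and at 18 months (old), which gave 4 groups of 4 arrays each. The labels do not describe the deletion, and they hold the strain and the age under each other's tags. By the design text the 4 arrays are biological replicates, and whether RNA of several animals was pooled is not stated.

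Oligodendrocyte precursors persist in the adult brain, carry the growth factor receptor Pdgfra and the proteoglycan Cspg4 (NG2), and go on dividing. Cells that leave this state pass through a short stage in which Gpr17, Neu4 and Bmp4 are prominent, then switch on Enpp6 and Bcas1 as they begin to make myelin. The transcription factors Sox10, Olig1 and Olig2 are present along the whole lineage. In RNA of a whole brain, fewer cells of a type and less RNA per cell cannot be told apart.

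Levels are log2 signals relative to the 75th percentile of the same array, so 0 is the signal that 1 probe in 4 exceeds. They are compared between arrays for the same probe, except that the distance between the Enpp6 probes on an array is compared between groups. Differences are log2 differences ± SE from limma's fit of the 4 groups, and calls (rises and falls) are those with a p under 0.05 after Benjamini-Hochberg adjustment over all 33074 tested probes. The 75th percentile of the 16 arrays ran from 624 to 1346 intensity units, and 58.4% to 66.1% of their spots exceeded background clearly. Array 1 of the young deficient group had the lowest 75th percentile and stood apart on the first principal component, at 117 against -32.0 to 31.0 for the others. All 10 neuronal and all 10 astrocyte marker genes were well above background on all 4 arrays of each group. All deficient arrays lay on slide 2 and all wild-type arrays on slide 1, so genotype and slide cannot be told apart in any comparison below. Each age comparison within a genotype lies on 1 slide, where the ages occupied different rows, and the order of the rows was opposite on the slides.

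Gpr17, an orphan receptor that is held on the surface of differentiating precursors and shut off before myelination, fell with age in both genotypes. Its probe lies on chromosome 18 from 32102750 to 32102809 (mm9), at base 5036 of the transcript. In young wild-type brains its level was 3.89, 4.08, 3.91 and 4.05 on the 4 arrays, and in old wild-type brains it was 3.42, 3.12, 3.25 and 2.95. Every old wild-type array lay below every young one, which 3.53% of all probes showed in 1 direction or the other. In deficient brains it read 3.44, 3.77, 3.57 and 3.59 at 4 months and 2.49, 2.75, 2.81 and 2.36 at 18 months, again without overlap, as for 17.4% of all probes. The fall was -0.80 ± 0.13 in wild type, or 1.74-fold (adjusted p = 0.00804), and -0.99 ± 0.13 in deficient mice, or 1.98-fold (adjusted p = 0.0016). Averaged over genotype it was -0.89 ± 0.09, or 1.86-fold, with a 95% interval of -1.08 to -0.70 (adjusted p = 9.22e-05), and all 8 old arrays lay below all 8 young ones. By p-value this was rank 17 of the 33074 probes, and rank 10 among the probes that were lower in old mice. The falls in the genotypes were not shown to differ, with a difference between them of -0.19 ± 0.18 (adjusted p = 0.702).

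Gpr17 was the only one of the 11 member probes called with age. That is 1 of 11 in wild type, where 0.375% of all probes were called, 1 of 11 in deficient mice, where 2.1% were, and 1 of 11 in the mean over genotype, where 1.45% were. Of all probes, 0.327% separated the old from the young arrays as Gpr17 did. The median age difference of the 11 member probes was -0.12 averaged over genotype, beside 0.00 for all probes, and 8 of the 11 were lower in old mice.

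Markers of tissues at the edge of a brain dissection moved with age as well. The mean log2 deviation of 9 genes of the olfactory epithelium, nerve and ensheathing cells from each gene's mean over the 16 arrays ran from 0.50 to 0.71 in young wild type and from 0.05 to 0.28 in young deficient mice. In old mice it ran from -0.54 to 0.15 in wild type and from -0.52 to -0.46 in deficient mice. All 9 olfactory genes were well above background on all arrays, and S100a5 and Omp, genes of olfactory sensory neurons, were the 2 of 9 that fell in the mean age comparison, at -3.84 and -2.48 on the log2 scale, where 0.852% of all genes were called lower. The median age difference of the 9 genes was -0.13, and without S100a5 and Omp, a choice made after their values were seen, the group means of the remaining 7 lay between -0.05 and 0.06. Of 11 Hox genes of the spinal cord and caudal hindbrain, 9 were measured and all 9 fell. Their mean deviation ran from -0.61 to 2.11 in young wild type, 1.17 to 3.22 in young deficient, -3.92 to -1.50 in old wild type and -1.18 to 0.80 in old deficient mice, and in old wild type none of the 9 was above background on all 4 arrays. The 6 measured pituitary genes had group means of 2.21 and 0.97 in young wild-type and deficient mice, and -1.98 and -1.19 in old ones, with Tshb, Fshb and Pou1f1 not kept. The 10 neuronal genes had group means between -0.08 and 0.05. The part of these tissues in the fall of Gpr17 was not tested.

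**Figure D1:**
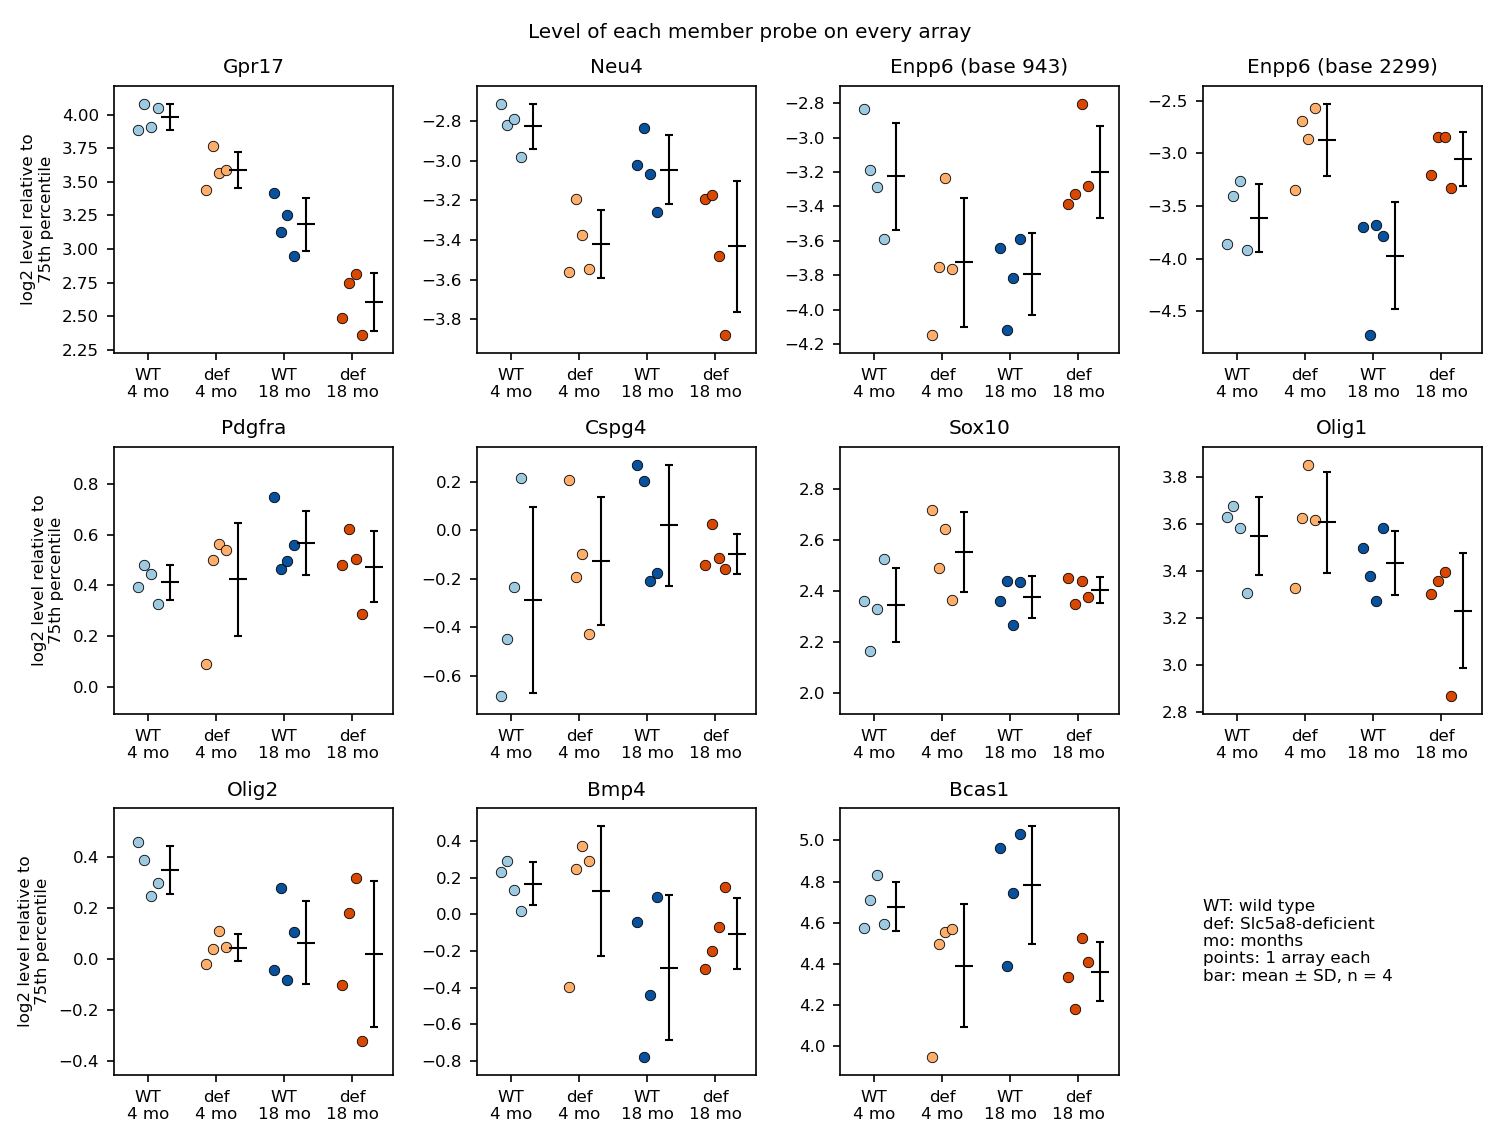
Level of each of the 11 member probes (log2 signal relative to the array's 75th percentile, vertical axis) on every array of the 4 groups (horizontal axis); points are single arrays and bars are mean ± SD (n = 4). Gpr17 steps down from 3.98 in young wild type through 3.59 and 3.18 to 2.60 in old deficient mice, while Pdgfra, Cspg4 and Sox10 overlap between the groups.

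Gpr17 was also lower in deficient than in wild-type brains. Averaged over age the difference was -0.49 ± 0.09, or 1.40-fold (95% interval -0.68 to -0.30, adjusted p = 0.00678). At 18 months it was -0.58 ± 0.13, or 1.50-fold (adjusted p = 0.0311), and at 4 months -0.39 ± 0.13, or 1.31-fold (adjusted p = 0.133). At each age every deficient array read below every wild-type array, a separation that 9.41% of probes showed at 4 months and 8.03% at 18 months. The call at 18 months was lost when any one of 6 arrays was left out. Without old deficient array 1, 2 or 4 the adjusted p was 0.106, 0.0519 and 0.11, and without old wild-type array 1, 2 or 3 it was 0.101, 0.0628 and 0.0709. The difference averaged over age was called with any single array left out. Over both ages together the deficient and wild-type Gpr17 levels overlapped, and 0.932% of all probes separated the genotypes in that way. In old deficient mice the 6 measured red blood cell genes had a mean deviation from -2.25 to -0.07, against -0.01 to 0.69 in old wild type, and of 12 microglial genes, 11 had lower means in the deficient group at that age, with 1 called, where 1.39% of all genes were called. Averaged over age, all 10 genes of the choroid plexus and all 10 of neuroblasts had lower means in deficient mice, with medians of -0.50 and -0.23, and none of these was called in limma (3 and 2 had an unadjusted p under 0.05). The choroid plexus median was -0.71 at 4 months and -0.24 at 18 months. In the same comparison S100a5 differed by -1.54 ± 0.29 (adjusted p = 0.00879) and Omp by -1.55 ± 0.39 (adjusted p = 0.043), the latter call being lost on leaving out any one of 13 of the 16 arrays, and 3.05% of all genes were called. Hox genes of the spinal cord and caudal hindbrain went the other way in that comparison. All 9 measured were higher in deficient mice, 5 of them called, with a median of 2.12. The part of these tissues and cells in the difference of Gpr17 was not tested.

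Neu4, a sialidase that removes sialic acids, polysialic acid among them, from glycoproteins and gangliosides, was lower in deficient brains. Its probe lies on chromosome 1 from 95924642 to 95924701 (mm9), and it was dim, at 52.9 to 190 intensity units. The level in young wild-type brains was -2.71, -2.82, -2.79 and -2.98, and in young deficient brains -3.56, -3.19, -3.37 and -3.55, with no overlap, as for 9.41% of all probes. In old brains it was -3.02, -2.83, -3.07 and -3.26 in wild type and -3.19, -3.17, -3.48 and -3.88 in deficient mice, where the groups overlapped. Averaged over age the difference was -0.49 ± 0.11, or 1.40-fold (adjusted p = 0.02). It was -0.59 ± 0.15 at 4 months (adjusted p = 0.0683) and -0.39 ± 0.15 at 18 months (adjusted p = 0.349), and neither of these was called. The call on the mean was lost with normexp background correction (-0.34, adjusted p = 0.0569) and with no filter on dim probes (adjusted p = 0.0563). With age, Neu4 differed by -0.12 ± 0.11 (95% interval -0.34 to 0.11, adjusted p = 0.631).

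Enpp6, a choline-specific phosphodiesterase that appears as precursors turn into oligodendrocytes, was read by a pair of probes that did not agree. The earlier one starts at base 943 of the transcript (chr8:48154284-48154343, mm9, plus strand), and the later one at base 2299 (chr8:48179484-48179543, mm9, plus strand), so they lie in different parts of the gene. They are shown because the genotype difference of Enpp6 depends on which of them is read. Of the later probe the first 30 bases are given.
Enpp6 earlier probe: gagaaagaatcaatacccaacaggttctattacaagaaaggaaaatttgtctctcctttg
Enpp6 later probe: actctttgctaggaatagtgatatatcaaa
The earlier probe has no stop codon in any of its 3 forward frames, and the later one is free of them in 1 frame. No exon annotation of this build was used here, so exon and UTR are not assigned.

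On the later probe, Enpp6 read higher in deficient brains. The level was -3.86, -3.41, -3.27 and -3.91 in young wild type and -3.35, -2.70, -2.87 and -2.57 in young deficient mice, with 15 of the 16 array pairs higher in deficient. In old mice it was -3.70, -4.72, -3.68 and -3.78 in wild type and -3.21, -2.84, -2.84 and -3.33 in deficient mice, without overlap, as for 8.03% of all probes. Averaged over age the difference was 0.83 ± 0.17, or 1.77-fold (95% interval 0.46 to 1.19, adjusted p = 0.0153), and with normexp background correction it was 0.53. It was 0.74 ± 0.24 at 4 months (adjusted p = 0.138) and 0.91 ± 0.24 at 18 months (adjusted p = 0.0901), and neither was called.

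On the earlier probe the mean difference was 0.05 ± 0.14 (95% interval -0.26 to 0.35, adjusted p = 0.933). There the level was -2.84, -3.19, -3.29 and -3.59 in young wild type against -4.15, -3.75, -3.24 and -3.77 in young deficient mice, a difference of -0.50 ± 0.20 (adjusted p = 0.224). In old mice it was -3.64, -4.12, -3.82 and -3.59 in wild type against -3.39, -3.33, -2.80 and -3.28 in deficient mice, a difference of 0.59 ± 0.20 (adjusted p = 0.242). The earlier probe was thus lower in young and higher in old deficient mice, and the change between the ages, 1.09 ± 0.29, was not called (adjusted p = 0.182). No member probe was called in that interaction, where 0.236% of all probes were, and 1 of the 11 had an unadjusted p under 0.05. With the mean of both probes, the genotype difference of Enpp6 was 0.44 and was no longer called (adjusted p = 0.102). Both probes were dim, at 29.2 to 208 intensity units.

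The distance between the probes on the same array was compared between the genotypes by an exact two-sided permutation test. The later minus the earlier probe was -1.02, -0.22, 0.02 and -0.32 in young wild type and 0.80, 1.06, 0.37 and 1.19 in young deficient mice. In old mice it was -0.06, -0.61, 0.14 and -0.19 in wild type and 0.18, 0.48, -0.04 and -0.05 in deficient mice, where the groups overlapped. Deficient exceeded wild type by 0.78 over both ages (exact permutation p = 0.00204, with a floor of 0.000408 in this design). At 4 months the excess was 1.24 (exact permutation p = 0.0286, the smallest possible), and at 18 months it was 0.32 (exact permutation p = 0.143).

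**Figure D2:**
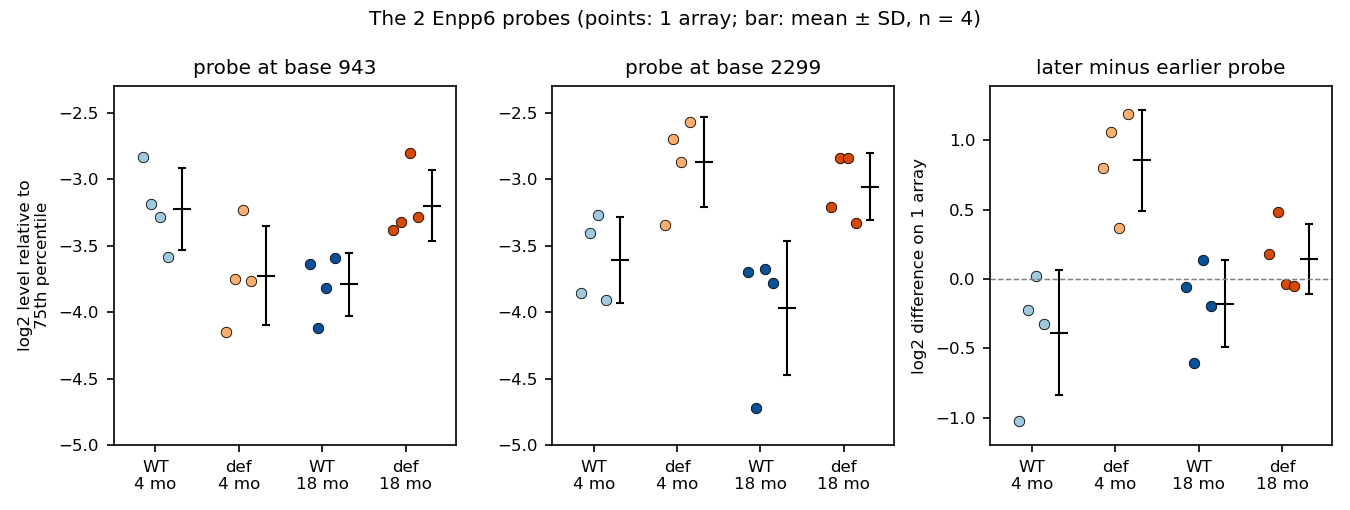
The Enpp6 probes at base 943 (left) and base 2299 (middle) as log2 level relative to the array's 75th percentile, and the later minus the earlier probe on the same array (right, log2 difference); points are single arrays of the 4 groups and bars are mean ± SD (n = 4). The distance between the probes averages -0.39 in young wild type and 0.85 in young deficient mice, and -0.18 and 0.14 in old mice.

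In all, 3 of the 11 member probes were called for genotype averaged over age (Gpr17 and Neu4 lower, the later Enpp6 probe higher), where 3.12% of all probes were called. At 18 months 1 of 11 was called, against 1.35% of all probes. At 4 months none was called by limma, against 1.43% of all probes, although 5 of the 11 had an unadjusted p under 0.05. Many other probes passed that threshold too. Olig2, with the largest limma p of those 5 (0.0322), ranked only 4366 of the 33074 probes by p. The median genotype difference of the member probes averaged over age was -0.04, beside 0.02 for all probes.

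Bcas1, a myelin-associated protein of cells that are just starting to form myelin, gave a mean genotype difference of -0.35 ± 0.11, or 1.28-fold lower in deficient mice, which was not called (95% interval -0.59 to -0.11, adjusted p = 0.118). The level was 4.57, 4.71, 4.83 and 4.59 in young wild type and 3.95, 4.50, 4.55 and 4.57 in young deficient mice, which met without overlapping (4.573 against 4.567 at the closest), a separation that 9.41% of all probes showed. In old mice it was 4.97, 4.39, 4.75 and 5.03 in wild type and 4.34, 4.18, 4.52 and 4.41 in deficient mice, which overlapped. The lowest young deficient value came from the array that stood apart on the first principal component. Its age difference averaged over genotype was 0.04 ± 0.11 (95% interval -0.20 to 0.28).

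Bmp4, a secreted morphogen that holds back oligodendrocyte maturation and is itself made by committed precursors, was read by a probe at base 1738 that passed the filter and by one at base 1931 that did not. The latter had a GC content of 15% and was well above background on 2 of the 16 arrays, so it was not tested. On the former, the level ran from 0.02 to 0.29 in young wild type, -0.40 to 0.38 in young deficient, -0.78 to 0.09 in old wild type and -0.30 to 0.15 in old deficient mice. All 4 ranges overlapped. The age difference averaged over genotype was -0.35 ± 0.14 (95% interval -0.64 to -0.05, adjusted p = 0.257), and the genotype difference was 0.07 ± 0.14 (adjusted p = 0.874).

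Pdgfra, the receptor through which platelet-derived growth factor keeps precursors dividing, and Cspg4, the NG2 proteoglycan on their surface, were called in none of the 7 contrasts. The Pdgfra probe was printed as 10 spots and gave its narrowest range in young wild type, at 0.33 to 0.48. Its level ran from 0.09 to 0.56 in young deficient, 0.46 to 0.75 in old wild type and 0.29 to 0.62 in old deficient mice. The mean age difference of Pdgfra was 0.10 ± 0.08 (95% interval -0.07 to 0.28) and its mean genotype difference was -0.04 ± 0.08 (95% interval -0.22 to 0.13). Cspg4 varied more than Pdgfra within young wild type, from -0.69 to 0.22, but less within old deficient mice, from -0.16 to 0.03. Its mean age difference was 0.17 ± 0.13 (95% interval -0.11 to 0.44), and its mean genotype difference was 0.02 ± 0.13 (95% interval -0.25 to 0.30). Meningeal fibroblasts also carry Pdgfra, and pericytes carry Cspg4. Of 12 genes of these cells, 3 fell with age, the collagens Col1a1, Col1a2 and Col3a1, by 0.89, 0.58 and 0.93 on the log2 scale, where 0.852% of all genes were called lower, and the call on Col1a2 was lost on leaving out any one of 9 arrays. Their part in the values of Pdgfra and Cspg4 was not tested.

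The 3 transcription factors of the lineage were not called in any contrast either. Sox10, which drives myelin genes, gave mean levels of 2.35 ± 0.15 (SD, n = 4) in young wild type, 2.55 ± 0.16 in young deficient, 2.38 ± 0.08 in old wild type and 2.40 ± 0.05 in old deficient mice. Its age difference averaged over genotype was -0.06 ± 0.07 (95% interval -0.21 to 0.09). Olig1, which promotes maturation and repair of myelin, had its lowest value, 2.87, on 1 old deficient array, and its age difference in deficient mice was -0.38 ± 0.14 (adjusted p = 0.158). Olig2, which specifies the lineage, was lower in all young deficient arrays (-0.02 to 0.11) than in all young wild-type arrays (0.25 to 0.46). Such a separation was seen at 4 months in 9.41% of all probes. The Olig2 difference, -0.30 ± 0.13, was not called (adjusted p = 0.244), and at 18 months it was -0.05 ± 0.13 (95% interval -0.32 to 0.23). Schwann cells also carry Sox10. Of 8 of their marker genes, 5 were measured, none was called in any contrast (at most 1 with an unadjusted p under 0.05 in limma).

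**Figure D3:**
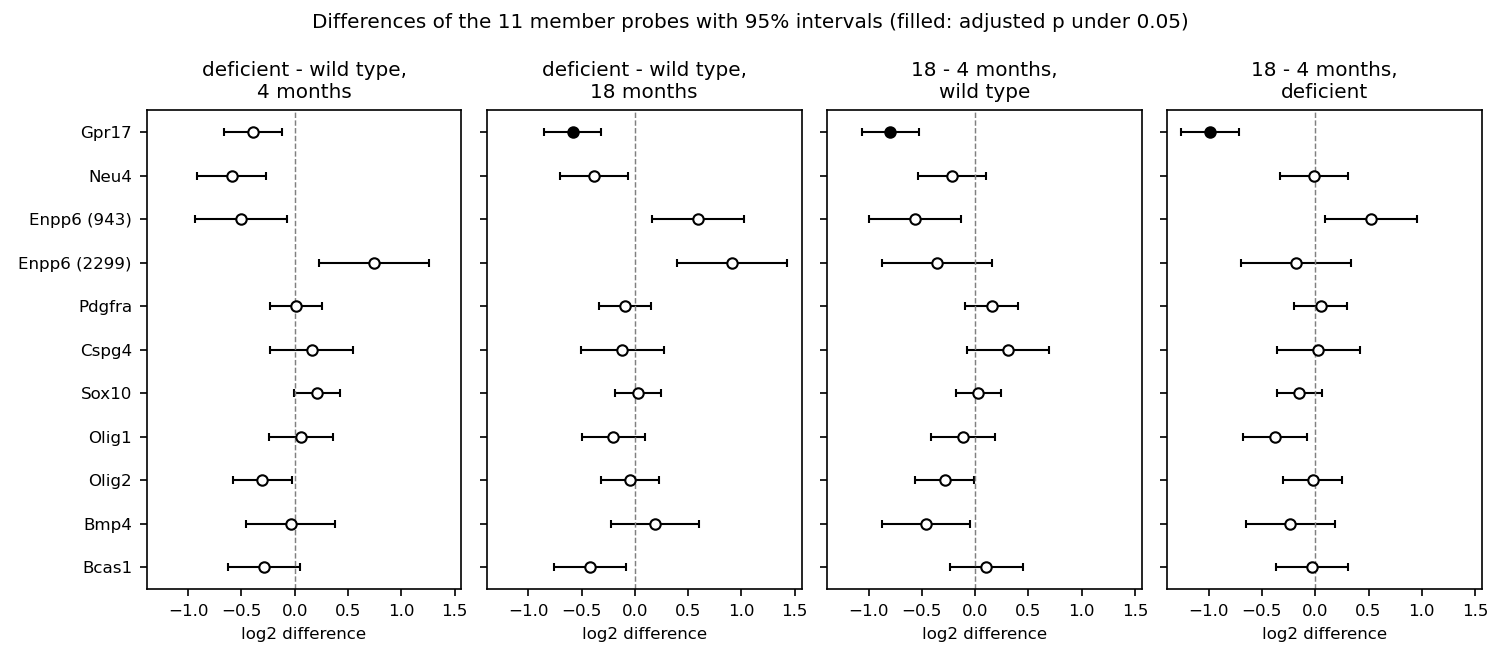
Log2 differences of the 11 member probes with 95% intervals (horizontal axis) for deficient minus wild type at 4 and at 18 months and for 18 minus 4 months in each genotype; filled points have an adjusted p under 0.05. Gpr17 is the only filled row, at -0.58 for genotype at 18 months and at -0.80 and -0.99 for age, and the Enpp6 probes lie on opposite sides of 0 in young mice.

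Other genes of the same stages were read from lists that leave out the members. Of 29 measured genes of committed precursors and newly forming oligodendrocytes, 4 fell and none rose with age averaged over genotype, where 0.852% of all genes were called lower. The median of the list was -0.12, beside -0.01 for all genes. The long noncoding RNA 9630013A20Rik, known from newly formed oligodendrocytes, fell by 1.71 ± 0.16 on the log2 scale (adjusted p = 6.4e-05). Prom1, a membrane protein of cell protrusions, fell by 0.51 ± 0.08 (adjusted p = 0.00474). Mpzl1, a cell-surface glycoprotein, fell by 0.33 ± 0.06 (adjusted p = 0.0185), a call lost without young wild-type array 3 (adjusted p = 0.0539). Fyn, a kinase that links axon contact to myelin formation, fell by 0.28 ± 0.06 (adjusted p = 0.0428), and that call was lost on leaving out any one of 14 of the 16 arrays, with an adjusted p of up to 0.0974. The regulators Tcf7l2, Myrf and Zfp488, which steer the start of myelination, were not called in any contrast, and neither was Itpr2.

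The RNA 9630013A20Rik was dim, at 27.1 to 299 intensity units. With normexp background correction its age difference was -0.998 and its genotype difference averaged over age -0.617, both still called. It read -2.42, -2.17, -2.24 and -2.20 in young wild type and -3.19, -3.10, -3.47 and -2.87 in young deficient mice. In old mice it read -3.28, -4.29, -3.41 and -4.47 in wild type and -4.79, -5.22, -4.88 and -5.04 in deficient mice. Neither age overlapped between genotypes, nor did either genotype overlap between ages. Of all probes, 9.41% separated the genotypes at 4 months and 8.03% at 18 months. The ages were separated by 3.53% of all probes in wild type and by 17.4% in deficient mice. The genotype difference averaged over age was -1.01 ± 0.16 (adjusted p = 0.00252), the single call among the 29 genes, where 3.05% of all genes were called. At 18 months it was -1.12 ± 0.23 (adjusted p = 0.022), and this call was lost without old deficient array 2 or 4 (adjusted p = 0.087 and 0.0669) or old wild-type array 1 or 3 (adjusted p = 0.0618 and 0.0615). It was also lost in 4 of 11 alternatives, among them normexp (-0.61, adjusted p = 0.0852) and the replicate block (adjusted p = 0.0535). Within old wild type, array 1 gave the highest 9630013A20Rik and Gpr17 values and also the highest Omp and S100a5 values, 0.37 and -1.55, against at most -1.97 and -3.08 on the others. Array 3 of that group gave the lowest Omp and S100a5 values, -3.27 and -4.42. Its 9630013A20Rik and Gpr17 values, -3.41 and 3.25, were the next highest after array 1. The share of olfactory tissue in these values was not tested.

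Of 30 further genes of oligodendrocyte precursors, all measured, 3 fell and none rose with age averaged over genotype, where 0.852% of all genes were called lower. The median of the list was 0.03. Fabp7, a fatty acid binding protein of glial progenitors that olfactory ensheathing cells also make, fell by 1.35 ± 0.14 (adjusted p = 9.76e-05). It read 3.03 to 3.42 in young wild type, 2.74 to 3.50 in young deficient, 2.04 to 2.43 in old wild type and 1.05 to 1.86 in old deficient mice, so that no old array reached a young one, as for 0.327% of all probes. Emid1, a secreted matrix protein, fell by 0.70 ± 0.11 (adjusted p = 0.00581), and Sox4, a transcription factor of immature cells, fell by 0.43 ± 0.07 (adjusted p = 0.00338). The age difference of Emid1 was -1.04 ± 0.16 in deficient mice (adjusted p = 0.00543). In wild type it was -0.36 ± 0.16 and was not called (adjusted p = 0.756), and the genotypes were not shown to differ in it (adjusted p = 0.317). The remaining 27, among them the precursor genes Ptprz1, Cacng4 and Vcan, were not called with age. For genotype averaged over age only Ccnd1, the cyclin that carries cells through G1, was called, at -0.89 ± 0.19 (adjusted p = 0.0159). That is 1 of the 30 genes, a share of the list close to the 3.05% of all genes.

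**Figure D4:**
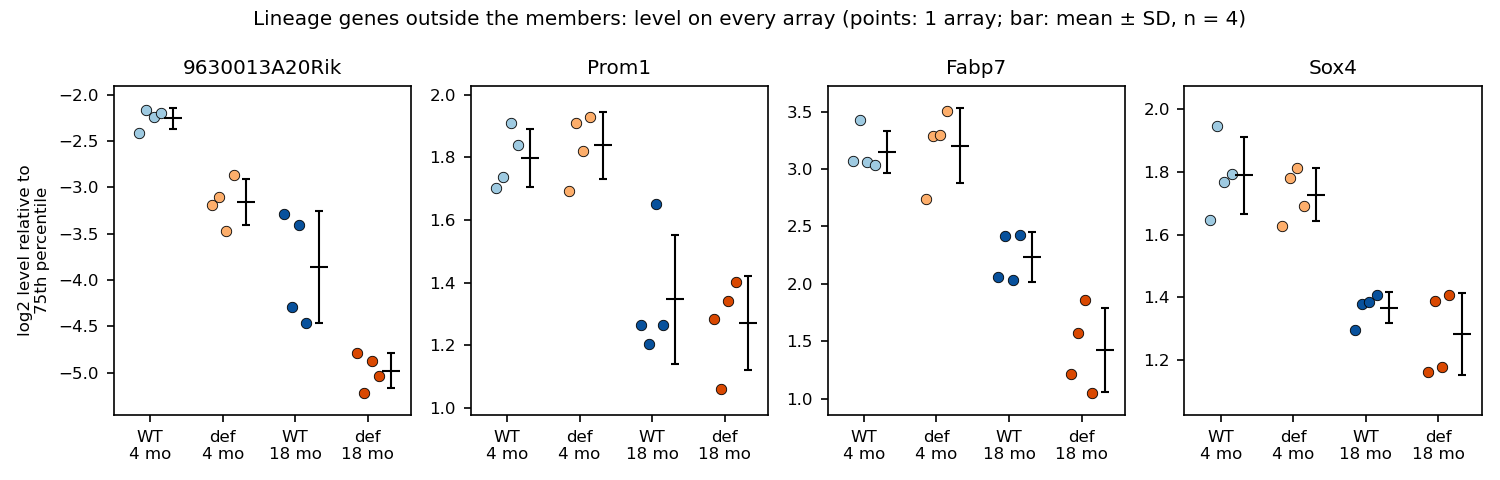
Levels of 9630013A20Rik, Prom1, Fabp7 and Sox4 (log2 signal relative to the array's 75th percentile, vertical axis) on every array of the 4 groups; points are single arrays and bars are mean ± SD (n = 4). For Fabp7 and Sox4 every old array lies below every young array, for 9630013A20Rik this holds within each genotype, and 1 old wild-type array of Prom1, at 1.65, comes close to the young ones.

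Mature myelin genes gave 37 measured members, of which none rose with age averaged over genotype. Among those that fell was the tetraspanin Tspan2, by 0.32 ± 0.07 (adjusted p = 0.0337). The list's median was -0.17. In old deficient against old wild-type mice Mobp rose by 0.97 ± 0.13 (adjusted p = 0.00107), while Il33, Ninj2 and Opalin fell by 0.56, 0.57 and 0.54, which made 4 of 37 called where 1.39% of all genes were. The call on Mobp, a structural protein of myelin, was lost when its 3 probes were averaged, at 0.41 (adjusted p of 0.074 in limma). Those on Il33, Ninj2 and Opalin were lost on leaving out any one of 12, 5 and 12 of the 16 arrays. So was that on Tspan2 with age, with 10 of 16. For genotype averaged over age, 1 of the 37 was called higher and 3 lower in deficient mice, where 3.05% of all genes were called. Among the lower ones was Il33, at -0.48 ± 0.09 (adjusted p = 0.00889), and that call held with any single array left out. Mbp, which encodes myelin basic protein, was not called in any contrast on its brightest probe.

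The signalling pathways that act on these cells gave few calls. Of 14 measured genes around platelet-derived growth factor (ligands, receptors and adaptors), 12 of the hedgehog pathway, 14 of the Wnt pathway and 8 other sialidases and ENPP enzymes, none was called by limma in any of the 7 contrasts. At an unadjusted p under 0.05 each of these lists had at most 3 genes in a contrast. Of 25 measured genes of the bone morphogenetic protein pathway, 1 was called for genotype averaged over age, the inhibitor of differentiation Id4, at -0.34 ± 0.08 (adjusted p = 0.0364), a share of the list close to the 3.05% of all genes. At 4 months Id4 differed by -0.64 ± 0.12 (adjusted p = 0.0158), with every deficient array (1.74 to 2.10) below every wild-type array (2.33 to 2.74), and the call was lost without young wild-type array 1 or 2 (adjusted p = 0.0626 and 0.0527). In that comparison 1.43% of all genes were called, and 9.41% of all probes separated the genotypes in this way. With age Id4 rose in deficient mice by 0.59 ± 0.12 (adjusted p = 0.0198), where 2.14% of all genes were called, and this was lost without old deficient array 1, 2 or 3 (adjusted p = 0.073, 0.0603 and 0.0511). Of 13 Notch genes, 1 was called in old deficient against old wild-type mice, where 1.39% of all genes were called. It was Hes5, a target that holds progenitors back from differentiating, lower in deficient mice by 0.87 ± 0.19 (adjusted p = 0.0352). The calls on Id4 averaged over age and on Hes5 were lost on leaving out any one of 11 and 9 of the 16 arrays, with an adjusted p of up to 0.086 and 0.118.

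**Figure D5:**
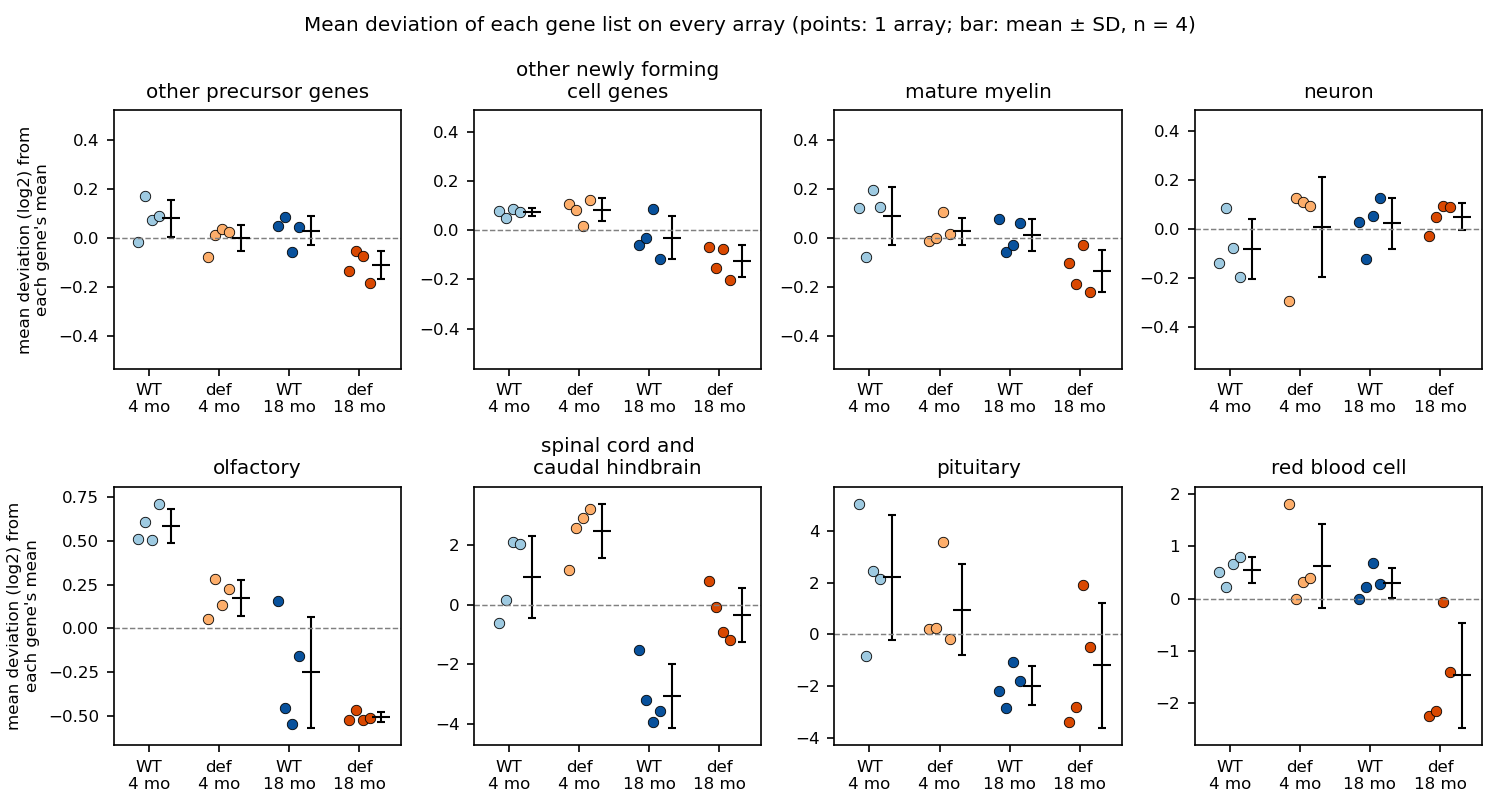
Mean log2 deviation of 8 gene lists from each gene's mean over the 16 arrays (vertical axis) on every array of the 4 groups; points are single arrays and bars are mean ± SD (n = 4). Precursor, newly forming and myelin lists stay within -0.22 and 0.20, while the lists of bordering tissues span wider ranges, such as -3.92 to 3.22 for the spinal cord and caudal hindbrain genes.

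Promoters of 6 of the 10 members were matched by symbol in RefSeq's table for GRCm38.p6, each with 250 bases before and 50 after the start of the gene. They were searched on both strands for hexamers of the kinds that Sox factors (ACAAAG and ACAATG) and Olig factors (CAGCTG and CAGATG) bind, and none of these hexamers contains another. ACAATG was present in 2 of the 6, Enpp6 and Olig2, and in 12.6% of all 32851 promoters of that length. CAGATG was present in Pdgfra only, and in 17.2% of all. ACAAAG and CAGCTG, found in 18.7% and 16.3% of all promoters, were in none of the 6 windows. The promoters of Neu4, which was lower in deficient mice, of Enpp6, whose probes disagreed, and of 9630013A20Rik, which had the largest called age difference in the lists of the lineage, are given, with matches to these hexamers in capitals. They lie at chr1:94020243-94020542 on the plus strand, chr8:46986637-46986936 on the plus strand and chr14:84476375-84476674 on the minus strand (GRCm38.p6).
Neu4 promoter: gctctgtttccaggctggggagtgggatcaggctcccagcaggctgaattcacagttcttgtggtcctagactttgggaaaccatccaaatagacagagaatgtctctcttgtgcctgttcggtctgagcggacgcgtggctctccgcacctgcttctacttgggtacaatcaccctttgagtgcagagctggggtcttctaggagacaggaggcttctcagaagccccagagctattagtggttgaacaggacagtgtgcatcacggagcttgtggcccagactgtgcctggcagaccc
Enpp6 promoter: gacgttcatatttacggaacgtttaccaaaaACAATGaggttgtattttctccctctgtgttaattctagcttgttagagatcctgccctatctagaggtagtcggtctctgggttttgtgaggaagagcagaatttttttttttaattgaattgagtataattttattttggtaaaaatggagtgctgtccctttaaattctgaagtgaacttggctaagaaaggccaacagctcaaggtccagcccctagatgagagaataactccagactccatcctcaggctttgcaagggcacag
9630013A20Rik promoter: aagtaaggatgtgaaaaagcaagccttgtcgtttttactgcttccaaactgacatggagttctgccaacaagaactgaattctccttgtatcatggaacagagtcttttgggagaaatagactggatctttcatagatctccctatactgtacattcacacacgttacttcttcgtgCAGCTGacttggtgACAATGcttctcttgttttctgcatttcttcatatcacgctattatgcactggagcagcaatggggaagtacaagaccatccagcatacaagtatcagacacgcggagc
The Neu4 window held none of the 4 hexamers, that of Enpp6 held 1 ACAATG, and that of 9630013A20Rik held 1 CAGCTG and 1 ACAATG.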

How the data were processed

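Total RNA of 16 whole brains was labelled with Cy3 and hybridised to 1-colour Agilent arrays, per the labels' protocols. The deposited scanner files hold spot intensity from Agilent Feature Extraction 10.7.3.1 with background subtracted and no scaling between arrays, per the file headers. The deposited value table gives log2 signals with array medians between 6.61 and 6.62, whose scale and background treatment are not stated, and it served as an alternative only. Probe positions are those of the scanner files (mm9). The tools named in the submitters' processing notes are limited to limma, without a version.

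The level of a probe was its log2 processed signal after subtracting that of the array's 75th percentile. Spots flagged as outliers (98 to 182 an array) were left out, 0 were saturated, and spots of a probe were averaged. Probes that cleared background on every array of 1 group or more were kept (33074, and 29446 did so on all 16 arrays). Gene lists were read through the brightest kept probe of each gene, for 23123 genes. All 16 arrays entered 1 limma model with a mean for each group (limma 3.58.1, R 4.3.3), with 12 residual and 2.94 prior degrees of freedom, and 7 contrasts were adjusted by Benjamini-Hochberg over all kept probes. The p-values reflect only how these samples spread. The number of arrays limits the precision.

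All member probes are named, and of each list up to 4 called genes with the smallest p per contrast, with some of those not called named as examples. Some genes of the lists are not reported here by name. The members and gene lists were chosen with earlier results of these data known. On data simulated for the genotype contrast, the fit recovered 90.5% of 200 probes changed by a log2 difference of 1, with 7 false calls among 33050 probes. Alternatives were normexp background correction (offset 50), quantile normalization, the deposited table, other filters, 1 probe or the mean of probes per gene, another scaling, array weights, the replicate block, a fit of 2 groups and leaving out each array.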

Additional observations from a re-analysis of the deposited data

Results flagged for a closer look

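In 140 groups of 4 arrays examined for members and named genes, 8 single values lay far from the other 3 of their group, where chance alone gives about 1 in 20. Array 1 of the young deficient group accounted for 4 of them. It read 3.95 for Bcas1, against 4.50 to 4.57 on the others, 0.093 for Pdgfra, against 0.50 to 0.56, and -0.40 for Bmp4, against 0.25 to 0.38. For the olfactory gene S100a5 it read -1.31, against -0.76 to -0.66. It is the array that stood apart on the first principal component. Without it, 3 member probes were called for genotype averaged over age, as with it, and the later Enpp6 probe differed by 0.91 (adjusted p = 0.00717).

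For the later Enpp6 probe, old wild-type array 2 read -4.72, against -3.78 to -3.68. Young wild-type array 2 read 3.42 for Fabp7, against 3.03 to 3.07, and 2.85 for Mpzl1, against 3.11 to 3.13. Old wild-type array 3 read 1.65 for Prom1, against 1.21 to 1.27.

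The genotype difference of the myelin gene Mobp differed between the ages, by 1.08 ± 0.19 on the log2 scale in limma's interaction contrast (adjusted p = 0.0228), on the brightest of its probes. This call was lost on leaving out any one of 8 of the 16 arrays, with an adjusted p of up to 0.0681, and without the filter on dim probes (adjusted p = 0.0854). When its 3 probes were averaged the difference was 0.57 (adjusted p = 0.171), and the other two probes were not called.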

How the results depend on the processing

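The fall of Gpr17 with age was called in both genotypes and in their mean under every alternative run and with each array left out, between -0.93 and -0.85 for the mean, and so was its genotype difference averaged over age, between -0.53 and -0.45. The genotype call of Gpr17 at 18 months was lost in 4 of 11 alternatives. Of the member probes called at 18 months for genotype, 1 in the report, 2 were called with normexp, 3 with array weights, and 0 with the deposited table, with no filter, with the replicate block and with only the 2 groups fitted. At 4 months, 0 in the report, 1 was called with normexp, 1 with the replicate block and 2 with array weights. With array weights 3 were called for age in deficient mice and 2 for age averaged over genotype. Array weights also raised the share of all probes called, to 8.34% for genotype at 4 months, 2.82% at 18 months, 12% for age in deficient mice and 6.48% for age averaged over genotype. At 4 months normexp called 0.943% of all probes and the replicate block 0.756%, and at 18 months normexp called 0.904%. Leaving out each array in turn gave 0 to 1 called at 18 months and 0 to 1 at 4 months for genotype, 3 to 4 averaged over age, 1 in each age contrast and 0 in the interaction. The distance between the Enpp6 probes differed by 0.52 to 0.78 between genotypes under 3 alternatives and by 0.68 to 0.86 with each array left out. No called difference changed sign.

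Same-numbered arrays of different groups did not deviate together (correlations of -0.42 to 0.25, 6 of 24 over 0.1, and 4 of 16 arrays best with their own number), so the numbers were not taken to pair the samples. The later Enpp6 probe, Neu4 and 9630013A20Rik are dim, which limits what their differences can show.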

Other observations

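Across the 16 arrays, deviations from the group mean were compared between members as a description. Each member was read through its brightest kept probe, which for Enpp6 is the later one. These deviations share array, depth of signal and scaling. Of the 45 pairs of members, 26 had a positive Pearson r, with a median of 0.18 and a range from -0.62 (Enpp6 and Sox10) to 0.88 (Bmp4 and Bcas1). Olig1 and Olig2, neighbours on chromosome 16, had an r of 0.62. Gpr17 was closest to Pdgfra (0.60) among the members and farthest from Sox10 (-0.30). Without young deficient array 1, 28 pairs were positive and the median was 0.16.

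Among 15228 other named genes, those whose deviations were most like those of Gpr17 were Dph2 (r = 0.91), Cdc37l1 (0.88), Cysltr2 (0.81), Aldh1a3 (0.81) and Dock9 (0.81). Most like Neu4 were Bub1b (r = 0.85), Elapor2 (0.82), Zfp438 (0.82), Atp5o (0.81) and H2bc21 (0.76). Most like the later Enpp6 probe were Clcc1 (r = 0.92), Mtfr1l (0.92), Spns2 (0.91), Galnt4 (0.91) and Pld1 (0.90). These are the highest of many values and are given as a description over 16 arrays.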
